A study of Mus musculus with 9 samples.

Results

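The genes described here make cholesterol and fatty acids or control those pathways, and 35 of them were listed by name: 28 of a sterol branch and 7 of a fatty acid branch. Probe sets were taken as theirs when the platform annotation gave exactly 1 symbol, a listed name or its older name, such as Sc4mol for Msmo1. Of the 35 genes, 34 had such probe sets and all 34 were tested, among 22071 named and 12646 tested genes. Acat2, a cytosolic thiolase at the head of the mevalonate pathway, had no probe set under its symbol and was not analysed here. The 34 genes had 833 probe sets, of which 703 passed a filter on dim signal. The filter used the mean over all arrays, so a high level in 1 group can still carry a probe set that lies near the threshold.

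Total RNA came from C2C12 cells, an established mouse myoblast line, grown in DMEM with 10% fetal bovine serum. All cells were transfected with an siRNA, a short double-stranded RNA that triggers cleavage of a matching transcript, and were lysed 48 h later. One group received a control siRNA, the second an siRNA against Cugbp1 (now called Celf1) and the third an siRNA against Mbnl1, with 3 exon arrays each and 100 ng of RNA per array. Both targets encode RNA-binding proteins that regulate splicing and transcript stability in muscle. The study measured 1 cell line with no other genotype, and its labels do not give the siRNA sequences. Nor do they state if each replicate was its own culture, so every p-value rests on array-to-array spread that may be technical. In RNA of a whole culture, fewer cells that express a gene and less RNA per cell cannot be told apart.

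Cholesterol is built from acetyl-CoA through mevalonate, isoprenoids, squalene and lanosterol, and fatty acids are built from acetyl-CoA by a carboxylase and a synthase. Both pathways are transcribed under the SREBP proteins, membrane-bound factors that SCAP escorts out of the endoplasmic reticulum when sterols are low and that INSIG proteins hold back when sterols are high. Muscle cells use the products for membranes and for prenylation of signalling proteins.

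The siRNA targets and the cell type were checked first. Celf1 read 10.11, 10.14 and 10.14 on control arrays 1 to 3 on the log2 intensity scale, and 8.6, 8.6 and 8.81 after Cugbp1 siRNA, a log2 change of -1.46 (limma adjusted p = 9.01e-07). Mbnl1 read 11.47, 11.46 and 11.44 on the controls and 10.05, 10.10 and 10.18 after Mbnl1 siRNA, a log2 change of -1.35 (limma adjusted p = 3.97e-07). Neither changed detectably with the other siRNA. Of the 7 myoblast markers, all tested, 6 had a median probe set above the dim-signal threshold in any group. Desmin (Des) read 11.83 to 12.03 over the 9 arrays, so expression of myoblast genes was borne out. By the same measure 5 of 8 genes of differentiated muscle were above the threshold. Of markers of other cell types, 0 of 8 hepatocyte, 2 of 11 blood, endothelial or epithelial and 4 of 8 adipocyte genes were. The adipocyte genes were divided. Adipoq and Lep stayed at 4.13 to 4.51 in group means, under the threshold of 7.0, and Fabp4 and Cidec at 4.34 to 6.12. Pparg (9.65 to 9.90), Cebpa (7.56 to 7.84) and Lpl (7.08 to 7.49) were above it in every group. Plin1 was above it on the controls alone (7.14, then 6.79 and 6.82).

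Marker genes of other cell types moved with the siRNAs, and their part in the results was not tested. A marker is called changed when limma gives it a Benjamini-Hochberg adjusted p under 0.05. Of all tested genes, 26% were called higher and 12.7% lower after Cugbp1 siRNA, and 26.9% and 14.6% after Mbnl1 siRNA. Of 8 tested blood, endothelial and epithelial markers, 6 were called lower after Cugbp1 siRNA (median -0.25), and 1 was called higher and 5 lower after Mbnl1 siRNA (median -0.27). Sums of log2 levels here cover all measured genes of a list with all their probe sets, so untested and dim ones are included. Over all 11 measured genes of this list the sum was 65.7 to 66.6 on the controls. It was 63.7 to 64.6 after Cugbp1 siRNA and 63.7 to 65.5 after Mbnl1 siRNA. The largest changes of tested genes were in the phagocyte gene Cd68 (0.49) and the endothelial gene Pecam1 (-0.42), both after Mbnl1 siRNA. Of 5 tested adipocyte markers, 1 was called higher and 1 lower after Cugbp1 siRNA (median -0.22), and 2 higher and 1 lower after Mbnl1 siRNA (median -0.13). Sums over all 8 measured adipocyte genes were 50.7 to 51.03, 49.7 to 50.72 and 50.57 to 51.45. The largest changes of tested ones were in lipoprotein lipase, Lpl (0.48 and 0.33). Of 3 tested hepatocyte markers, 1, Hnf4a, was called lower in each comparison with control (medians -0.14 and -0.15). The sums over all 8 measured hepatocyte genes were 40.95 to 41.95, 38.95 to 40.56 and 39.57 to 41.98. Of 7 myoblast markers, 3 were called higher after Cugbp1 siRNA (sums 67.82 to 68.41, then 68.94 to 69.34), led by Cdh15 (0.32) and Cdh2 (0.31), and 1 higher and 1 lower after Mbnl1 siRNA (68.26 to 69.04). Of 6 tested markers of differentiated muscle, 2 were called higher after Cugbp1 siRNA, led by the fusion gene Mymk (0.54), and 0 after Mbnl1 siRNA (limma, with 1 of 6, Myh3, at an unadjusted p under 0.05).

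Each gene has 1 value per array, a median polish of its kept probe sets. Calls use p-values adjusted over all 12646 genes. Values are levels on the log2 intensity scale and can be compared between arrays but not between genes, because probes differ in brightness and no length scaling was made. Changes are differences of group means on that scale, and no listed gene reached a change of 1.5-fold in any comparison.

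After Cugbp1 siRNA 15 of the 34 cholesterol and fatty acid genes were called higher than on the control arrays and 1 was called lower. Of all tested genes 38.7% were called, 26% higher and 12.7% lower. With arrays centred on the median of kept named probe sets, the members' counts were 7 higher and 3 lower. The all-gene shares were then 10.8% and 25.4%. With arrays centred on the median of all probe sets the counts were 22 and 0, and the all-gene shares 34.8% and 9.73%. Insig1, the sterol-sensing brake on SREBP, rose most (log2 change 0.38), followed by Cyp51, which demethylates lanosterol (0.36), and mevalonate kinase, Mvk (0.32). The sterol branch had 12 called higher and 1 lower of 27, and the fatty acid branch 3 higher of 7. The median change was 0.13 in both branches, against 0.05 over all tested genes. The share of members called, 47.1%, was not far from the background of 38.7%.

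After Mbnl1 siRNA fewer of the listed genes were called higher than lower, 3 against 7 of 34. That order turned to 5 against 4 with arrays centred on the median of all probe sets. There 33.5% of all genes were called higher and 11.3% lower. As deposited, 41.5% of all genes were called, 26.9% higher and 14.6% lower. The genes called lower were Pmvk, Lss, Hsd17b7, Srebf1, Srebf2 and Abcg1 of the sterol branch and Fasn of the fatty acid branch. Those called higher were Insig1, Npc2 and Abca1. The median change was -0.0050 in the sterol branch and -0.03 in the fatty acid branch, against 0.04 over all genes. Both comparisons with the control use the same 3 control arrays.

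The arrays with either siRNA can also be set against each other, a difference to which the control arrays lend only their spread. Here 12 of 34 genes were called higher after Cugbp1 siRNA than after Mbnl1 siRNA and 1 was called lower, 38.2% of the list. In this comparison 9.34% of all tested genes were called, 4.27% higher and 5.07% lower. The 12 were Mvk, Mvd and Fdps of the mevalonate steps, Lss, Cyp51, Tm7sf2 and Dhcr7 of the later sterol steps, Insig1, Srebf1 and Srebf2 of the control genes, and Acly and Fasn of the fatty acid branch. The 1 gene called lower was the cholesterol exporter Abca1. Of the 34 changes, 30 were above 0, with a median of 0.14, against 0.0068 over all tested genes. The listed genes were brighter, with a median level of 10.17 against 8.56 over all tested genes. The part of signal strength in the shares called was not tested, and the list was chosen with earlier results of these data known.

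Single arrays showed the same order. The 3 Cugbp1 siRNA arrays lay wholly above the 3 controls for 22 of the 34 genes and wholly below for 0, where the groups did not overlap for 48.8% of all genes (32.9% above, 15.9% below). The 3 Mbnl1 siRNA arrays lay wholly above the controls for 8 genes and wholly below for 12, where 57.5% of all genes did not overlap (37.3% above, 20.3% below). Between the siRNAs, Cugbp1 siRNA arrays lay wholly above for 19 genes and wholly below for 3, where 29.5% of all genes did not overlap (15.1% above, 14.4% below).

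**Figure D1:**
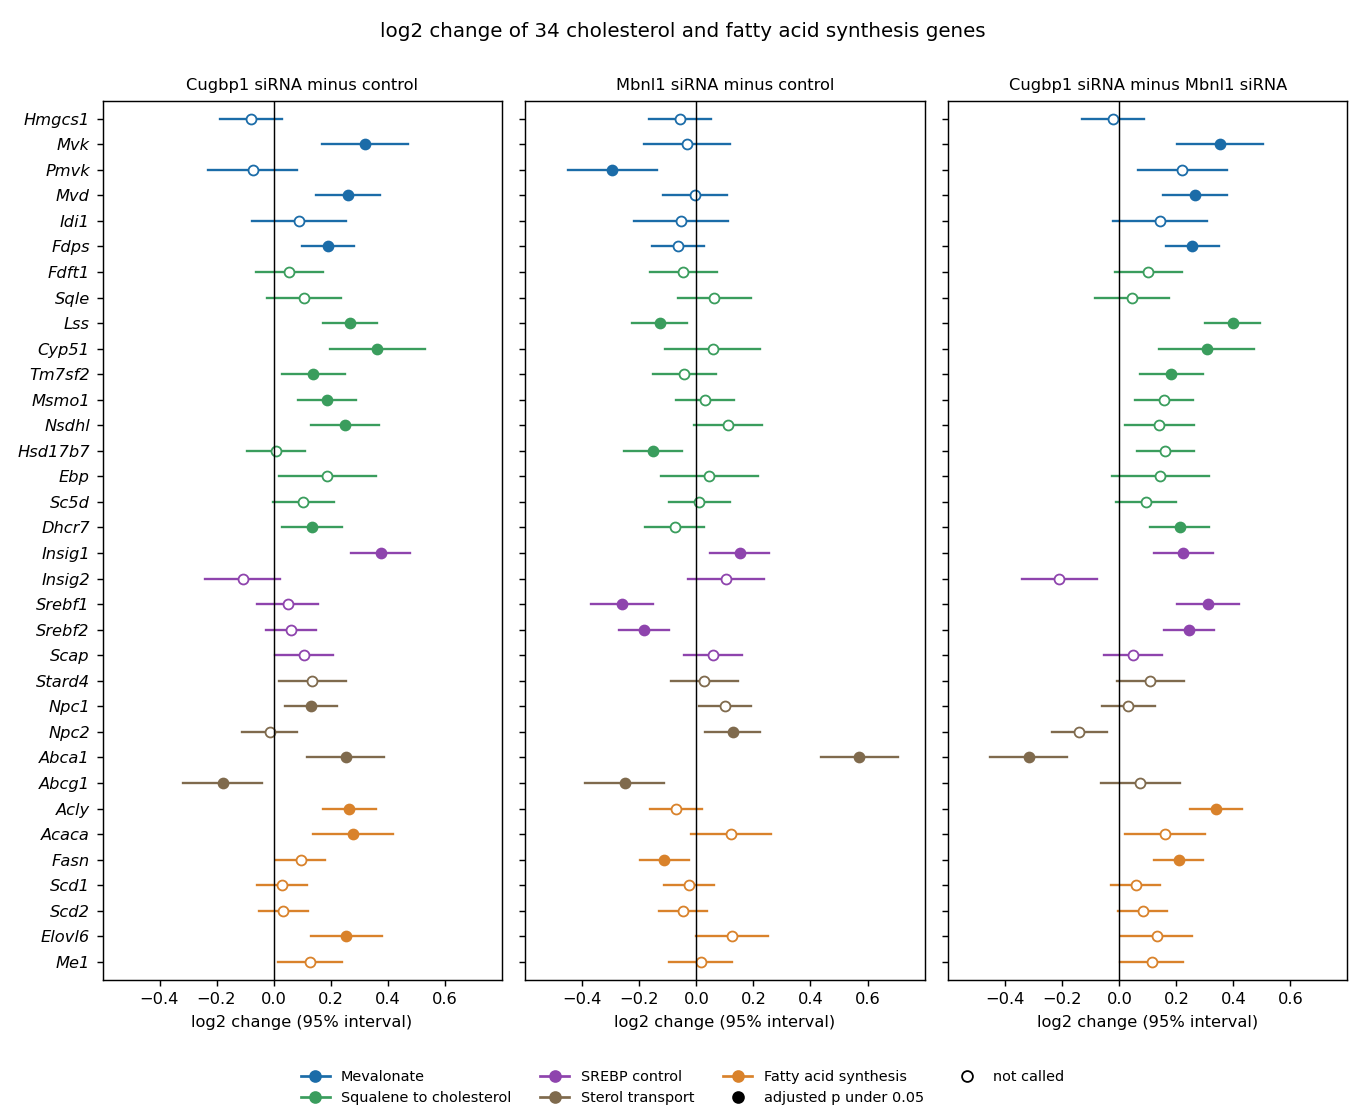
Change of each of the 34 genes in the 3 comparisons, as a difference of group means of 3 arrays each on the log2 intensity scale (x axis), with limma's 95% intervals as bars; rows are genes, coloured by role, and filled points have an adjusted p under 0.05. The left panel holds 15 filled points above 0 and 1 below, the middle panel 3 above and 7 below, and the right panel 12 above and 1 below; calls against the control depend on the array scaling.

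How the arrays were scaled moved the comparisons with the control and hardly moved the direct one. As deposited, 67.3% of all called genes were higher after Cugbp1 siRNA and 64.8% after Mbnl1 siRNA. With each array centred on the median of its kept named probe sets, a scaling added after the data were seen, these shares were 29.9% and 30.5%, and with quantile normalisation over the same probe sets 37.7% and 37.1%. Centring on the median of all probe sets gave 78.1% and 74.7%. The largest shift of the all-gene median, in the comparison of Mbnl1 siRNA with control, was -0.104. Of the list, 7 genes were called higher and 3 lower after Cugbp1 siRNA under the added centring, and 1 higher and 14 lower after Mbnl1 siRNA. All-gene shares there were 10.8% higher and 25.4% lower, and 13.6% and 31%. Between the siRNAs the same scaling called 13 higher and 1 lower, where 5% and 5.26% of all genes were called. In that comparison the all-gene median moved by at most 0.0096 under any scaling.

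Calls that stayed in the same direction under all 5 scalings numbered 7 of 16 for Cugbp1 siRNA against control: Mvk, Lss, Cyp51, Nsdhl, Insig1, Acly and Acaca. For Mbnl1 siRNA against control they numbered 5 of 10: Pmvk, Srebf1, Srebf2, Abca1 and Abcg1. Between the siRNAs they were 12 of 13, all but Tm7sf2.

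**Figure D2:**
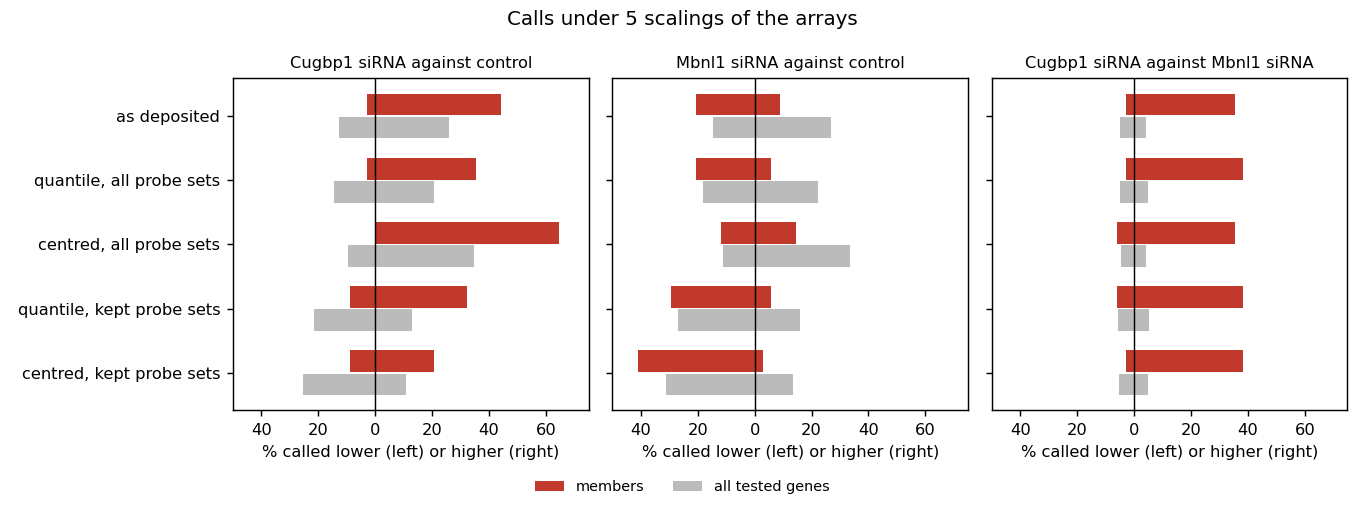
Share of genes called higher (right of 0) or lower (left of 0) in percent, for the 34 listed genes (red) and all 12646 tested genes (grey), in the 3 comparisons (panels) under 5 scalings of the arrays (rows). In the outer left and middle panels the bars shift from right to left between scalings, and in the right panel the red bars stay at 12 or 13 genes higher and 1 or 2 lower.

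The upstream regions of genes that moved are shown because SREBP, NF-Y and Sp1 are known to act together at promoters of these pathways. The sequences are the 250 bases before a transcription start listed in RefSeq on GRCm38.p6, written 5′ to 3′ on the gene's strand. The 4 called genes with the largest rise after Cugbp1 siRNA come first, and the last 2 are those with the smallest change in that comparison. Capitals mark matches on either strand to 4 motifs: CACGTG (E-box), CCAAT (NF-Y, ATTGG on the other strand), GGGCGG (GC box, CCGCCC on the other strand) and TCACNCCAC (a sterol regulatory element with 1 free base).
Insig1, chr5:28071162-28071411, plus strand: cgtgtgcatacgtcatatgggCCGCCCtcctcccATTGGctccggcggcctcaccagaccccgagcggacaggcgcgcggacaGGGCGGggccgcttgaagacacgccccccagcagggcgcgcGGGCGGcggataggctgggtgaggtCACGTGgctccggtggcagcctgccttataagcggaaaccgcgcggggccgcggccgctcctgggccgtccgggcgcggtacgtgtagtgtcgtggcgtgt
Cyp51, chr5:4104698-4104947, minus strand: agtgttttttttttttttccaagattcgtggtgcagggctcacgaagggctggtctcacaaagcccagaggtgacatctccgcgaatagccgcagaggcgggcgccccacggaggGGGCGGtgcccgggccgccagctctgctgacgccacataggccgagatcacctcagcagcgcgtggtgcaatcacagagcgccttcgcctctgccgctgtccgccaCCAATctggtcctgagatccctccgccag
Mvk, chr5:114444019-114444268, plus strand: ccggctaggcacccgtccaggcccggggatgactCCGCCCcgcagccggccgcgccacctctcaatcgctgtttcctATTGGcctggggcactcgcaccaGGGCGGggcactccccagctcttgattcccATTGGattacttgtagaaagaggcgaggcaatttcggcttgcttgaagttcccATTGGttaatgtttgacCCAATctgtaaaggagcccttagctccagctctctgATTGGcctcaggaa
Acaca, chr11:84195188-84195437, plus strand: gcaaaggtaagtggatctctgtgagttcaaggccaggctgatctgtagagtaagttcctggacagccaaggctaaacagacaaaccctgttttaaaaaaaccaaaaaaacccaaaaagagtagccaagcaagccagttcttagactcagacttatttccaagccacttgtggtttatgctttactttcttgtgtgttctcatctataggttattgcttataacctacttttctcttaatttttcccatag
Hsd17b7, chr1:169969206-169969455, minus strand: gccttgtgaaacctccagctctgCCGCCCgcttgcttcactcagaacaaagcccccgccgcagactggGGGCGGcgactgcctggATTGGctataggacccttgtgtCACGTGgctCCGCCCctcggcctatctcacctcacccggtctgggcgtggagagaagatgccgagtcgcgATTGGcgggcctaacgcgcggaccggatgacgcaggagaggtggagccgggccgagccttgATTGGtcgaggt
Npc2, chr12:84773113-84773362, minus strand: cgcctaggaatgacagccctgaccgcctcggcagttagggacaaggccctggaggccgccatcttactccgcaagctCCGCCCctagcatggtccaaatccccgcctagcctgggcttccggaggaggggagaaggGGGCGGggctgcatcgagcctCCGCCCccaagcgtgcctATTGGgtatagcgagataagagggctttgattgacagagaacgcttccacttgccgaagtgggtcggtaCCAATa

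The Insig1 window holds 1 E-box, 1 NF-Y box and 3 GC boxes, and the Hsd17b7 window holds 1, 3 and 3. Insig1 had the largest change after Cugbp1 siRNA and Hsd17b7 one of the smallest. After Mbnl1 siRNA Hsd17b7 was called lower and Npc2 higher. The part of these motifs in the changes was not tested. The Cyp51, Mvk and Npc2 windows hold NF-Y and GC boxes, and the Acaca window before this start holds none of the 4 motifs. Which starts these cells use was not measured, so a window may not be the active promoter. The Acaca window does not stand for other starts of that gene. Sequences were in the table for 27 of the 35 genes, as 36 promoters, since some genes have several starts. A match is a description of the letters only.

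Over those 36 promoters, CCAAT was in 61.1%, against 33.9% of all 32841 promoters of the same length. GGGCGG was in 72.2% against 32.7%, and CACGTG in 16.7% against 6.02%. TCACNCCAC was in 2.78%, the promoter of Hmgcs1 alone, against 1.05%. The classic sterol regulatory element, a longer word whose matches are all matches to TCACNCCAC too, was in 0 of 36 and in 0.0731% of all. Only these exact words were searched, so sterol regulatory elements of another spelling were missed, and their absence from a promoter cannot be read from these counts. Of the promoters of genes called higher after Cugbp1 than after Mbnl1 siRNA, 11 of 15 held CCAAT and 12 of 15 GGGCGG. Of those not called there, 11 of 19 and 12 of 19 did.

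The mevalonate steps turn acetyl-CoA units into the isoprenoid farnesyl diphosphate, and 3 of their 6 tested genes were called higher after Cugbp1 siRNA, where 26% of all genes were. Under the added centring 1 was called higher and 1 lower, where 10.8% and 25.4% of all genes were. Mvk, the kinase that phosphorylates mevalonate, read 9.05, 9.06 and 8.97 on control arrays 1 to 3. It read 9.19, 9.44 and 9.41 after Cugbp1 siRNA and 9.05, 8.92 and 9.02 after Mbnl1 siRNA. All 3 Cugbp1 siRNA arrays lay above the other 6, the first of them least, and the Mbnl1 siRNA arrays overlapped the controls. The change was 0.32 against the control (SE 0.07, limma adjusted p = 0.00563) and 0.35 against Mbnl1 siRNA (limma adjusted p = 0.0102), a 1.28-fold difference between the siRNAs.

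Mvd, the decarboxylase that makes isopentenyl diphosphate, read 8.67, 8.68 and 8.77 on the controls, 8.99, 8.93 and 8.99 after Cugbp1 siRNA and 8.66, 8.67 and 8.79 after Mbnl1 siRNA. The Cugbp1 siRNA group stood alone above both others, which covered the same range. Its change was 0.26 against the control (limma adjusted p = 0.00383) and 0.27 against Mbnl1 siRNA (limma adjusted p = 0.00956). Fdps, which joins isoprenoid units into farnesyl diphosphate, read 9.70, 9.63 and 9.71, then 9.89, 9.84 and 9.89, then 9.61, 9.62 and 9.63 in the same order of groups. None of its groups overlapped: Cugbp1 siRNA was highest and Mbnl1 siRNA lowest. Only the rise of 0.19 against control and the difference of 0.26 between the siRNAs were called (limma adjusted p = 0.00618 and 0.00438), and the change of -0.06 after Mbnl1 siRNA was not (limma adjusted p = 0.229).

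Pmvk, the kinase after Mvk, was the 1 mevalonate gene called lower after Mbnl1 siRNA. It read 8.24, 8.36 and 8.43 on the controls, 8.23, 8.35 and 8.23 after Cugbp1 siRNA and 7.92, 8.17 and 8.05 after Mbnl1 siRNA. Every Mbnl1 siRNA array lay below the other 6, with a change of -0.29 against control (SE 0.07, limma adjusted p = 0.00792). Its difference of 0.22 between the siRNAs was not called (limma adjusted p = 0.0801). Hmgcs1, which makes HMG-CoA, and Idi1, the isopentenyl isomerase, were called in no comparison. Hmgcs1 changed by -0.08 and -0.06 against control (95% intervals -0.19 to 0.03 and -0.16 to 0.05). Idi1 changed by 0.09 and -0.06 (-0.08 to 0.25 and -0.22 to 0.11). The calls of Mvd and Fdps against control were lost when arrays were centred on kept named probe sets (0.13 and 0.08, limma adjusted p = 0.0703 and 0.148). That of Pmvk was lost when dim probe sets were not filtered at all or were filtered at the median (log2 change -0.104 and -0.181, limma adjusted p = 0.17 and 0.061), and 7 of its 15 probe sets passed the filter.

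From squalene to cholesterol, 6 of 11 genes were called higher and 0 lower after Cugbp1 siRNA, and 0 higher and 2 lower after Mbnl1 siRNA. The all-gene shares were 26% higher and 12.7% lower, and 26.9% higher and 14.6% lower. Between scalings the counts ran from 3 to 9 higher after Cugbp1 siRNA and from 0 to 4 lower after Mbnl1 siRNA. The all-gene shares ran from 10.8% to 34.8% and from 11.3% to 31%. As deposited, all 11 changes were above 0 in the first comparison, and 8 of the 11 genes had their Cugbp1 siRNA arrays wholly above the controls, an event seen for 32.9% of all genes. Lss, lanosterol synthase, which closes the sterol rings, showed the largest difference between the siRNAs of all 34 genes. It read 9.83 on each of the 3 control arrays, 10.04, 10.12 and 10.14 after Cugbp1 siRNA and 9.66, 9.73 and 9.71 after Mbnl1 siRNA. The 3 groups did not overlap and the controls lay between the siRNAs.

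Lss rose by 0.27 after Cugbp1 siRNA (limma adjusted p = 0.00156) and fell by 0.13 after Mbnl1 siRNA (limma adjusted p = 0.0346). The difference between the siRNAs was 0.40 (SE 0.04, limma adjusted p = 0.000471), or 1.32-fold. The fall was less firm than the rise. It lost its call when arrays were centred on the median of all probe sets (-0.09, limma adjusted p = 0.115), and without any 1 of the 6 control and Mbnl1 siRNA arrays (-0.14 to -0.11, limma adjusted p from 0.0513 to 0.118). Of the 25 probe sets kept for Lss, 24 were higher on average after Cugbp1 siRNA and 4 after Mbnl1 siRNA than on the controls.

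Cyp51, the demethylase that acts on lanosterol, read 10.19, 10.14 and 10.10 on the controls, 10.33, 10.56 and 10.64 after Cugbp1 siRNA and 10.14, 10.19 and 10.27 after Mbnl1 siRNA. Cugbp1 siRNA arrays were all highest, the first by a small margin over the third Mbnl1 siRNA array. The change was 0.36 against control (limma adjusted p = 0.00499) and 0.31 between the siRNAs (limma adjusted p = 0.0308). The second call was lost without any 1 of the 3 Mbnl1 siRNA arrays or without Cugbp1 siRNA array 2 or 3 (0.24 to 0.34, limma adjusted p from 0.0521 to 0.109).

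Nsdhl and Msmo1 take part in removing the methyl groups at carbon 4 of the sterol. Nsdhl read 11.14, 11.21 and 11.09 on the controls, 11.29, 11.42 and 11.48 after Cugbp1 siRNA and 11.26, 11.25 and 11.26 after Mbnl1 siRNA. Msmo1 read 10.13, 10.12 and 10.01, then 10.26, 10.32 and 10.24, then 10.13, 10.10 and 10.12. Both were higher on every Cugbp1 siRNA array than on every other array, by 0.25 and 0.19 against control (limma adjusted p = 0.00596 and 0.0112). Neither difference between the siRNAs was called (0.14 and 0.16, limma adjusted p = 0.144 and 0.0627).

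Tm7sf2, a sterol C14 reductase, read 8.24, 8.25 and 8.18 on the controls, 8.38, 8.31 and 8.39 after Cugbp1 siRNA and 8.20, 8.25 and 8.10 after Mbnl1 siRNA. Dhcr7, the reductase that makes cholesterol in the last step, read 8.88, 8.94 and 8.91, then 9.11, 8.99 and 9.04, then 8.78, 8.87 and 8.86. In both, the Cugbp1 siRNA arrays were above all others, and Dhcr7 was lowest on the Mbnl1 siRNA arrays. Tm7sf2 rose by 0.14 (limma adjusted p = 0.0486) and differed by 0.18 between the siRNAs (limma adjusted p = 0.0469). Dhcr7 rose by 0.13 (limma adjusted p = 0.0429) and differed by 0.21 (limma adjusted p = 0.0196).

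These calls depended on single arrays. The difference of Tm7sf2 between the siRNAs was lost without any 1 of the 9 arrays (0.14 to 0.22, limma adjusted p up to 0.163), and its rise without any 1 of 7, the exceptions being Mbnl1 siRNA arrays 2 and 3 (0.12 to 0.17). The rise of Dhcr7 was lost without any 1 of 7 arrays, all but Cugbp1 siRNA array 2 and Mbnl1 siRNA array 1 (0.10 to 0.15), and its difference between the siRNAs without Mbnl1 siRNA array 1 or 3 (0.18 to 0.22). Of the rises in these steps, those of Tm7sf2, Dhcr7 and Msmo1 were lost under the added centring (0.05, 0.03 and 0.08, limma adjusted p = 0.507, 0.664 and 0.154).

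Hsd17b7, a ketoreductase of the demethylation steps, was the other gene called lower after Mbnl1 siRNA. It read 9.85, 9.96 and 9.81 on the controls, 9.89, 9.87 and 9.88 after Cugbp1 siRNA and 9.71, 9.74 and 9.71 after Mbnl1 siRNA. The Mbnl1 siRNA arrays were below all others, and the Cugbp1 siRNA arrays lay inside the range of the controls. Its change was -0.15 (limma adjusted p = 0.0225), which lost its call without control array 2 or Mbnl1 siRNA array 1 or 3 (-0.15 to -0.11, limma adjusted p from 0.0653 to 0.0709). Fdft1, which makes squalene, Sqle, which oxidises it, Ebp, a sterol isomerase, and Sc5d, a desaturase, were called in no comparison. Their changes lay from 0.06 to 0.19 after Cugbp1 siRNA and from -0.05 to 0.06 after Mbnl1 siRNA. Ebp had the widest interval of these against control, 0.02 to 0.36, with 1 Cugbp1 siRNA array at 10.10 and the others at 9.84 and 9.76.

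Of the 5 control genes, 1 was called higher and 0 lower after Cugbp1 siRNA, and 1 higher and 2 lower after Mbnl1 siRNA, with medians of 0.06 in both comparisons. The all-gene shares were 26% and 12.7%, and 26.9% and 14.6%. Under the added centring the counts were 1 and 1, and 0 and 2, where the all-gene shares were 10.8% and 25.4%, and 13.6% and 31%. Insig1 holds the SREBP and SCAP complex in the endoplasmic reticulum and is itself an SREBP target. It read 10.16, 10.20 and 10.25 on the controls, 10.58, 10.59 and 10.57 after Cugbp1 siRNA and 10.40, 10.39 and 10.28 after Mbnl1 siRNA. The groups did not overlap, with Cugbp1 siRNA highest and the controls lowest. The rise was 0.38 (SE 0.05), or 1.3-fold, after Cugbp1 siRNA (limma adjusted p = 0.00052) and 0.15 after Mbnl1 siRNA (limma adjusted p = 0.0245), and the siRNAs differed by 0.22 (limma adjusted p = 0.0145).

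For Insig1 the rise after Cugbp1 siRNA was called under every alternative tried. The rise after Mbnl1 siRNA was lost under 3 of the 4 other scalings (0.03 to 0.10, limma adjusted p from 0.1 to 0.626) and without control array 1 or 2 or Mbnl1 siRNA array 1 or 2 (0.13 to 0.15). The difference between the siRNAs was lost without Cugbp1 siRNA array 2 or Mbnl1 siRNA array 3 (0.22 and 0.19, limma adjusted p from 0.0536 to 0.0599).

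Srebf1 and Srebf2 encode the SREBP factors themselves, the first weighted to fatty acid genes and the second to sterol genes. Srebf1 read 9.67, 9.64 and 9.64 on the controls, 9.61, 9.73 and 9.75 after Cugbp1 siRNA and 9.41, 9.33 and 9.42 after Mbnl1 siRNA. Srebf2 read 10.97, 11.01 and 10.99, then 11.09, 11.04 and 11.02, then 10.80, 10.79 and 10.82. The Mbnl1 siRNA arrays were below all 6 others for both genes, while Cugbp1 siRNA arrays overlapped the controls for Srebf1 and were just above them for Srebf2.

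Srebf1 fell by 0.26 after Mbnl1 siRNA (limma adjusted p = 0.00233), to 83.4% of the control, and Srebf2 fell by 0.19 (limma adjusted p = 0.00476), to 88.0%. Changes after Cugbp1 siRNA were 0.05 and 0.06 (limma adjusted p = 0.436 and 0.247). Between the siRNAs the differences were 0.31 and 0.24 (limma adjusted p = 0.00362 and 0.00438). These falls and differences were called under every alternative tried, and only 1 of 30 kept Srebf1 probe sets and 4 of 79 kept Srebf2 probe sets were higher after Mbnl1 siRNA than on the controls.

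Insig2, the second INSIG gene, and Scap, the escort, were called in no comparison. Insig2 changed by -0.11 after Cugbp1 siRNA and 0.10 after Mbnl1 siRNA, and its difference of -0.21 between the siRNAs was near the threshold (95% interval -0.34 to -0.08, limma adjusted p = 0.0522). That difference was called under centring on the median of all probe sets, under quantile normalisation of kept named probe sets and without Cugbp1 siRNA array 3 (limma adjusted p from 0.0385). Scap changed by 0.11 and 0.06 against control.

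**Figure D3:**
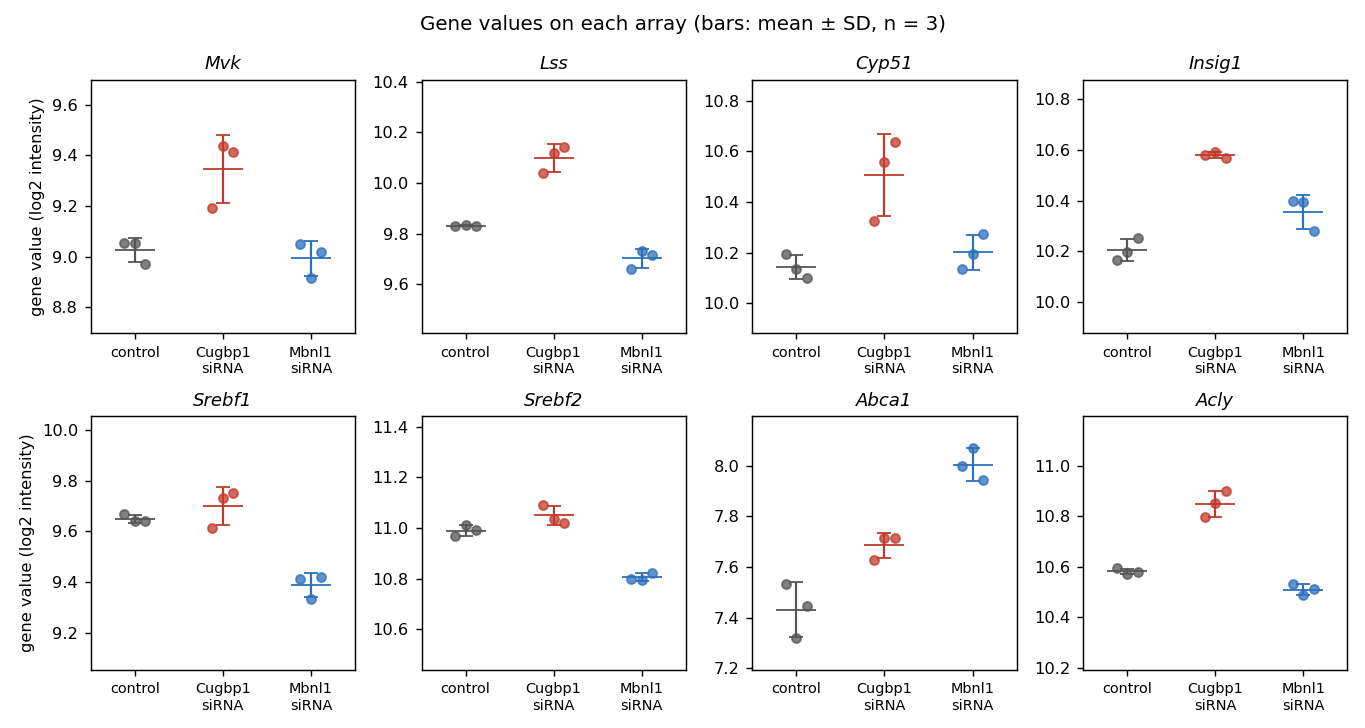
Gene values on the log2 intensity scale (y axis, a different range for each gene) of 8 genes on each of the 9 arrays; points are arrays, and lines with bars are the mean ± SD of 3 arrays per group. Mvk, Lss, Cyp51, Insig1 and Acly are highest on the Cugbp1 siRNA arrays, Srebf1 and Srebf2 are lowest on the Mbnl1 siRNA arrays, and Abca1 is highest there.

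Of the 5 genes that move cholesterol, 2 were called higher and 1 lower after either siRNA, where 26% and 12.7% of all genes were called higher and lower after Cugbp1 siRNA and 26.9% and 14.6% after Mbnl1 siRNA. Under the added centring the counts were 0 and 1 after Cugbp1 siRNA and 1 and 1 after Mbnl1 siRNA. The all-gene shares were then 10.8% and 25.4%, and 13.6% and 31%. Abca1, which exports cholesterol to apolipoproteins, read 7.53, 7.32 and 7.45 on the controls, 7.63, 7.71 and 7.71 after Cugbp1 siRNA and 8.0, 8.07 and 7.94 after Mbnl1 siRNA. Its groups did not overlap, and the controls were lowest. It rose by 0.25 after Cugbp1 siRNA (limma adjusted p = 0.00978) and by 0.57 after Mbnl1 siRNA (limma adjusted p = 0.00012), or 1.49-fold, the largest change of any listed gene. Abca1 was lower after Cugbp1 siRNA than after Mbnl1 siRNA by 0.32 (log2 change -0.32, limma adjusted p = 0.00956).

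Abca1 lay near the dim-signal threshold of 7.0, and 34 of its 79 probe sets passed the filter. Its rise after Mbnl1 siRNA and the difference between the siRNAs were called under every alternative tried. The rise after Cugbp1 siRNA was lost under both scalings over kept named probe sets (0.15, limma adjusted p = 0.0839 and 0.0862).

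Abcg1, a half-transporter that exports cholesterol to high-density lipoprotein, moved down where Abca1 moved up. It read 8.15, 7.97 and 8.09 on the controls, 7.81, 7.99 and 7.87 after Cugbp1 siRNA and 7.87, 7.81 and 7.77 after Mbnl1 siRNA. The Mbnl1 siRNA arrays were below the controls, and 1 Cugbp1 siRNA array lay among them. It fell by 0.25 after Mbnl1 siRNA (limma adjusted p = 0.00987) and by 0.18 after Cugbp1 siRNA (limma adjusted p = 0.0458). The latter was lost without any 1 of 7 arrays, all but control array 2 and Cugbp1 siRNA array 2 (-0.18 to -0.14, limma adjusted p up to 0.148). Abca1, Abcg1 and Srebf1 are all known targets of the liver X receptors, and after Mbnl1 siRNA their changes were 0.57, -0.25 and -0.26. A part of these receptors in the changes was not tested.

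Npc1 and Npc2 carry cholesterol out of lysosomes. Npc1 read 10.13, 10.11 and 10.08 on the controls, 10.19, 10.26 and 10.26 after Cugbp1 siRNA and 10.19, 10.23 and 10.19 after Mbnl1 siRNA. Npc2 read 10.95, 11.04 and 10.95, then 10.92, 10.97 and 11.004, then 11.13, 11.10 and 11.08. Each gene was above the controls on all arrays of the group where it was called: Npc1 after Cugbp1 siRNA (0.13, limma adjusted p = 0.0296) and Npc2 after Mbnl1 siRNA (0.13, limma adjusted p = 0.0402). Npc1 lost this call without control or Cugbp1 siRNA array 2 or 3 (0.12 to 0.13), and Npc2 without control array 1 or 3, any Mbnl1 siRNA array or Cugbp1 siRNA array 2 (0.11 to 0.14). Centring on kept named probe sets gave 0.02 for both (limma adjusted p = 0.702 and 0.773). Stard4, a cytosolic sterol carrier, was called nowhere, at 0.14 and 0.03 against control (limma adjusted p = 0.0648 and 0.696).

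In the fatty acid branch, 3 of 7 genes were called higher after Cugbp1 siRNA, and 1 was called lower after Mbnl1 siRNA, where 26% and 14.6% of all genes were. After Mbnl1 siRNA the added centring gave 0 higher and 4 lower, where 13.6% and 31% of all genes were called. Centring on all probe sets gave 1 higher and 0 lower, where 33.5% and 11.3% of all genes were. Acly, which splits citrate to supply cytosolic acetyl-CoA to both branches, read 10.59, 10.57 and 10.58 on the controls. It read 10.80, 10.85 and 10.90 after Cugbp1 siRNA and 10.53, 10.49 and 10.51 after Mbnl1 siRNA. The groups did not overlap, and the controls lay between the siRNAs as for Lss. The rise was 0.27 after Cugbp1 siRNA (limma adjusted p = 0.00134), the change after Mbnl1 siRNA was -0.07 (limma adjusted p = 0.182), and the siRNAs differed by 0.34 (SE 0.04, limma adjusted p = 0.00088), or 1.26-fold.

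Acaca, the acetyl-CoA carboxylase that commits carbon to fatty acids, read 9.43, 9.43 and 9.39 on the controls, 9.54, 9.72 and 9.82 after Cugbp1 siRNA and 9.51, 9.54 and 9.56 after Mbnl1 siRNA. Both siRNA groups were above the controls and overlapped each other at the first Cugbp1 siRNA array. The rise of 0.28 after Cugbp1 siRNA was called (limma adjusted p = 0.00761), and the change of 0.12 after Mbnl1 siRNA was not (limma adjusted p = 0.15). Of 90 kept Acaca probe sets, 89 were higher after Cugbp1 siRNA and 72 after Mbnl1 siRNA than on the controls.

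Fasn, the fatty acid synthase, read 11.71, 11.73 and 11.71 on the controls, 11.82, 11.77 and 11.84 after Cugbp1 siRNA and 11.58, 11.62 and 11.60 after Mbnl1 siRNA. Its groups did not overlap, in the same order as Acly and Lss. The change of 0.09 after Cugbp1 siRNA was not called (limma adjusted p = 0.0757), the fall of 0.11 after Mbnl1 siRNA was (limma adjusted p = 0.0396), and the difference of 0.21 between the siRNAs was called under every alternative tried (limma adjusted p = 0.0088). The fall was lost without any 1 of the 6 control and Mbnl1 siRNA arrays (-0.12 to -0.10) and under centring on the median of all probe sets (-0.08, limma adjusted p = 0.135).

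Elovl6, which lengthens palmitate, read 10.66, 10.79 and 10.67 on the controls, 10.87, 10.97 and 11.04 after Cugbp1 siRNA and 10.79, 10.88 and 10.83 after Mbnl1 siRNA. Its Cugbp1 siRNA arrays were above all controls and overlapped the Mbnl1 siRNA arrays, with a rise of 0.26 against control (limma adjusted p = 0.0068). The rise was lost under the added centring (0.14, limma adjusted p = 0.0615). Scd1 and Scd2, the stearoyl-CoA desaturases that make oleate, and Me1, which supplies NADPH, were called in no comparison. Scd1 and Scd2 changed by 0.03 each after Cugbp1 siRNA (95% intervals -0.06 to 0.12 and -0.05 to 0.12). Scd1 to Scd4 are close copies that can share probe sequence, so their values may not be independent. Me1 changed by 0.13 and 0.01 against control.

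The branches were set side by side on each array, with no test of a difference between them. The median deviation from the control mean over the 27 sterol genes was 0.10, 0.16 and 0.15 on Cugbp1 siRNA arrays 1 to 3 and -0.02, 0.0040 and -0.0066 on the Mbnl1 siRNA arrays. Over the 7 fatty acid genes it was 0.11, 0.15 and 0.19, and -0.05, 0.0094 and -0.02. Over all 12646 genes it was 0.02, 0.07 and 0.07, and 0.05, 0.03 and 0.05. On every Cugbp1 siRNA array both branches were above the all-gene median, and on every Mbnl1 siRNA array both were below it. Cugbp1 siRNA array 1 was lowest of its group in the mevalonate steps, at 0.03 against 0.16 and 0.21, and also lowest of its group in the all-gene median. The 11 genes from squalene to cholesterol varied little between the 3 arrays, at 0.16, 0.16 and 0.15.

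**Figure D4:**
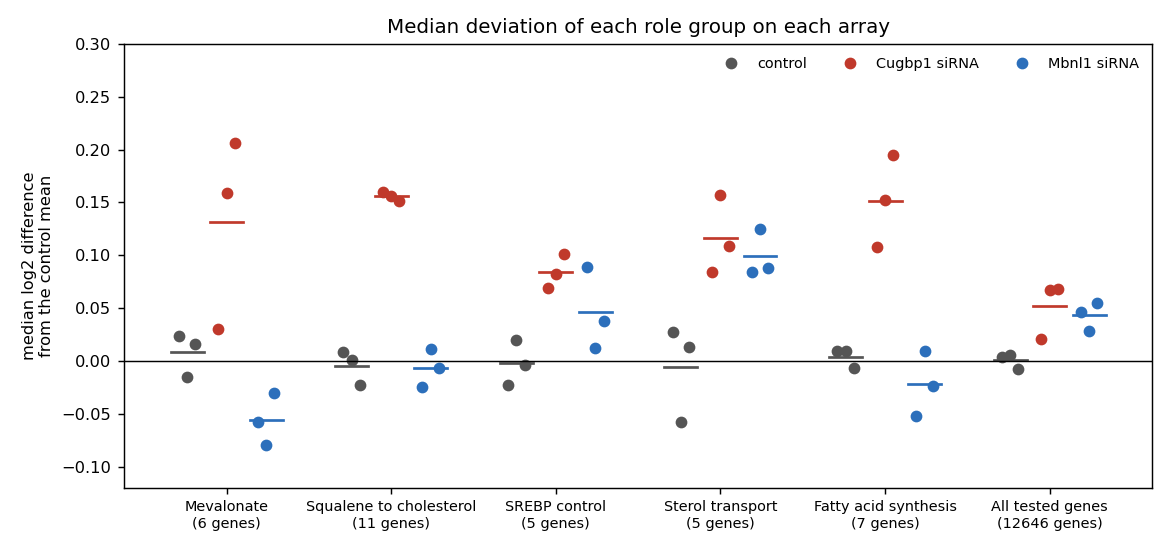
Median log2 difference from the control mean (y axis) over the genes of each role and over all tested genes, on each of the 9 arrays; points are arrays and short lines are the means of 3 arrays. For mevalonate, squalene to cholesterol and fatty acid synthesis genes the 3 Cugbp1 siRNA arrays lie above the 3 Mbnl1 siRNA arrays, and for SREBP control and sterol transport genes the groups overlap.

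Other genes of the same pathways were taken from 2 lists that are not members of the set. Of 20 tested genes for other sterol functions, 8 were called higher and 2 lower after Cugbp1 siRNA, and 7 higher and 0 lower after Mbnl1 siRNA. Between the siRNAs 1 was higher and 2 were lower. All-gene shares called were 38.7%, 41.5% and 9.34% in these comparisons. Split into higher and lower, they were 26% and 12.7%, 26.9% and 14.6%, and 4.27% and 5.07%. The added centring called 10.8% of all genes higher and 25.4% lower after Cugbp1 siRNA, and 13.6% and 31% after Mbnl1 siRNA. Under it the sterol counts were 4 higher and 3 lower after Cugbp1 siRNA. They were 3 higher and 6 lower after Mbnl1 siRNA, so the order turned in the latter. As deposited, their median changes were 0.07, 0.10 and 0.07. Of 22 tested genes for other fatty acid functions, 10 were called higher and 4 lower, 6 higher and 4 lower, and 2 higher and 1 lower in the same order of comparisons. The added centring gave 5 higher and 6 lower after Cugbp1 siRNA and 4 higher and 9 lower after Mbnl1 siRNA, which turned the order in both. As deposited, the medians were 0.14, 0.05 and 0.06.

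Ggps1, which makes the geranylgeranyl group used in prenylation, rose most in both comparisons with control, by 0.60 and 0.52 (limma adjusted p = 8.01e-05 and 5.5e-05). Its control arrays read 8.39 to 8.46, and all 6 arrays with either siRNA read 8.93 to 9.11, so it moved with both siRNAs. Soat1, which esterifies cholesterol for storage, read 10.06 to 10.10 on the controls and 10.10 to 10.11 after Mbnl1 siRNA, and 10.49 to 10.55 after Cugbp1 siRNA. Its rise of 0.44 was called for Cugbp1 siRNA (limma adjusted p = 0.000104), and it differed by 0.43 between the siRNAs (limma adjusted p = 0.000164).

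Erlin2, which with Erlin1 forms a complex that marks endoplasmic reticulum proteins for degradation, moved in opposite directions. It read 9.01, 9.03 and 8.93 on the controls, 8.37, 8.37 and 8.39 after Cugbp1 siRNA and 9.49, 9.57 and 9.39 after Mbnl1 siRNA. It fell by 0.61 after Cugbp1 siRNA and rose by 0.49 after Mbnl1 siRNA, a log2 difference of -1.10 between the siRNAs (limma adjusted p = 2.6e-06). No group overlapped another, and this difference was larger than that of any of the 34 genes. Erlin1 changed in the same directions by -0.19 and 0.19 (limma adjusted p = 0.0278 and 0.0217).

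In the fatty acid list the citrate carrier Slc25a1, which brings to the cytosol the citrate that Acly splits, also had the controls between the siRNAs. It rose by 0.20 after Cugbp1 siRNA (limma adjusted p = 0.00361), fell by 0.17 after Mbnl1 siRNA (limma adjusted p = 0.00706) and differed by 0.37 between them (limma adjusted p = 0.000394). Hacd3, a dehydratase of fatty acid elongation, rose by 0.44 after Cugbp1 siRNA, and Fabp5, a fatty acid carrier, by 0.41 after Mbnl1 siRNA. The largest falls were those of Pnpla3, a lipid-droplet enzyme (-0.32 and -0.39), and Acacb, the mitochondrial carboxylase (-0.22 and -0.27), with either siRNA. Scd4, a desaturase copy, changed by -0.19 after Mbnl1 siRNA.

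Single probe sets were also compared with their gene, since exon arrays can show a part of a transcript that departs from the rest. A departure is a probe set's log2 change minus that of its gene, tested in limma over 158713 probe sets. Of the 703 kept probe sets of the listed genes, 16 (2.28%) in 9 genes departed after Cugbp1 siRNA, where 3.75% of all probe sets did. After Mbnl1 siRNA 28 (3.98%) in 13 genes departed, against 6.98% of all. Between the siRNAs 0 departed, where 0.0277% of all did. In that comparison 39 of the 703 had an unadjusted limma p under 0.05, as did 10521 of all 158713. Abca1 held the most, 5 of its 34 after Cugbp1 siRNA and 10 after Mbnl1 siRNA, 4 above and 6 below the gene. Acaca held 2 and 4 of its 90, and Insig2 2 of its 12 with either siRNA. The values of Abca1 lay near the dim-signal threshold, and the part of signal strength in its departures was not tested.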

How the data were processed

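The 35 genes and the lists of other pathway genes and markers were chosen with earlier results of these data known. The deposited values are one linear intensity per probe set and array (1195555 probe sets, 9 arrays), which the authors made with RMA (background correction, normalisation between arrays and a summary over probes) in Affymetrix Expression Console on genome build mm9, per the submitters' processing notes. Their versions were not given in the sources used here. RMA had already scaled the arrays, and a further scaling depends on the probe sets it is taken over. Centring shifts all values of an array equally and quantile normalisation does not, and either can move every comparison with control.

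Values were log2-transformed. Probe sets were named from the platform annotation, with symbols updated through a list of RefSeq genes: 316997 had 1 symbol, 6571 had several, and 871987 were not listed and are unnamed here; the first alone were used. Probe sets with a mean at or above the 75th percentile (log2 7.0, intensity 128) were kept, and genes with at least 3 kept probe sets were summarised by median polish. The 12646 gene values were fitted in 1 limma model over the 3 groups (limma 3.58.1, R 4.3.3, data.table, version 1.17.8), with Benjamini-Hochberg adjustment over all genes and 95% intervals. Departures of probe sets were fitted in limma (trend = TRUE) in genes with at least 4 kept probe sets. The main gene fit and the departure fit were run on simulated data, for Cugbp1 siRNA against control only. The detection required of the gene fit there was for changes larger than any listed gene showed. The alternative fits were not simulated.

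Named are all 35 genes; those called in any comparison have values on every array. Of the other pathway lists, the called genes with the 3 largest rises and falls against control are named, and of each marker list the 2 with the largest changes. Erlin1, Slc25a1 and Myh3 were named after their values were seen. Promoters and motifs came from RefSeq (GRCm38.p6), and coordinates were used for nothing else. No 2 arrays shared more than 918 identical values, and none was treated as a copy. The number of arrays limits the precision. Replicate numbers did not pair the arrays: deviations of same-numbered arrays from their group means correlated from -0.101 to 0.124. Figures were drawn with matplotlib 3.10.9. Alternatives covered the filter, array scaling, gene summary, minimum of probe sets, the replicate block, fits on 2 groups and leaving out each array. The 2 scalings over kept named probe sets were added after the data were seen.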

Additional observations from a re-analysis of the deposited data

Results flagged for a closer look

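For 13 of the 34 genes the effects of the siRNAs differed, by the limma test of Cugbp1 siRNA against Mbnl1 siRNA with Benjamini-Hochberg adjustment over all genes, a difference to which the control arrays add only their spread. In log2 units it was 0.397 for Lss, 0.352 for Mvk, 0.338 for Acly, 0.31 for Srebf1, 0.306 for Cyp51, 0.266 for Mvd, 0.256 for Fdps, 0.245 for Srebf2, 0.224 for Insig1, 0.211 for Dhcr7, 0.208 for Fasn, 0.182 for Tm7sf2 and -0.319 for Abca1. In all 13 the arrays of the siRNA groups did not overlap, but the genes were called on these same arrays, so this adds no support. Over all 34 genes, called or not, the siRNA groups did not overlap for 22, where 29.5% of all genes did not. Leaving out any 1 array kept the calls of Lss, Mvk, Acly, Srebf1, Mvd, Fdps, Srebf2, Fasn and Abca1, and ended those of Cyp51, Dhcr7, Insig1 and Tm7sf2 for the arrays named with these genes. Of the 13 genes, Lss was the only one called in opposite directions against the control. No group had enough arrays for a search for single arrays that stand apart.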

How the results depend on the processing

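No value changed sign among called results, and of the summary results under an alternative, 228 stayed within their limits and 51 moved. Scaling moved the branch medians against control most. For the sterol branch after Cugbp1 siRNA, the median was 0.172 centred on all probe sets, 0.0905 with quantile normalisation of all, 0.0581 with that of kept named probe sets, 0.0182 centred on the latter and 0.107 without a filter. After Mbnl1 siRNA it was 0.0364, -0.0379, -0.0843 and -0.114 in that order of scalings, and 0.00664 without a filter or with the filter at the median. For the fatty acid branch it was 0.164 centred on all, 0.0359 centred on kept and 0.0878 with quantile normalisation of kept probe sets after Cugbp1 siRNA. After Mbnl1 siRNA it was 0.0152 centred on all, -0.138 centred on kept and -0.0025 with means of probe sets. Members called after Cugbp1 siRNA numbered 10 centred on kept probe sets. Means of probe sets gave 19 higher and 0 lower after Cugbp1 siRNA and 7 higher and 5 lower after Mbnl1 siRNA. The all-gene shares were then 31.5% and 14.8%, and 32.7% and 17.5%.

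All genes called between the siRNAs numbered 739 with 1 probe set per gene and 639 without a filter, against 1181. Departing member probe sets after Cugbp1 siRNA were 5 in the fit on 2 groups, 6 with the filter at the median, 2 without a filter and 10 with the replicate block, and 10 after Mbnl1 siRNA without a filter.

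Leaving out 1 array in turn called 3444 to 5319, 3774 to 5759 and 628 to 1157 of all genes (Cugbp1, Mbnl1, between siRNAs) and 13 to 16, 5 to 12 and 9 to 15 members. The 5 came without Mbnl1 siRNA array 1; 6 came without Mbnl1 siRNA array 2 or 3 or control array 1 or 2. Sterol medians were 0.119 to 0.133, -0.0187 to 0.0161 and 0.134 to 0.164, and fatty acid medians 0.0944 to 0.173, -0.0451 to -0.00729 and 0.0906 to 0.176. Departing probe sets were 4 to 15, 12 to 31 and 0. With the replicate block, whose numbers do not pair the arrays, members called higher and lower were 12 and 0, 2 and 6, and 11 and 1. The all-gene shares were then 23.6% and 12.3%, 25.3% and 14.1%, and 2.92% and 4%. Under every alternative together, 7 of 16, 4 of 10 and 9 of 13 member calls were kept. The filter on dim signal passed 34 of 79 Abca1, 9 of 24 Abcg1 and 7 of 15 Pmvk probe sets, so the signal over background limits these genes.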
